A study of Mus musculus with 10 samples.

Results

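The genes of the natriuretic peptide system were examined in the mouse left ventricle after transverse aortic constriction (TAC). In this operation the aorta is narrowed, which raises the pressure against which the left ventricle pumps. The set was 10 genes, found by symbol among the 45706 genes of the deposited table: the peptide genes Nppa, Nppb and Nppc, the protease genes Corin, Furin and Pcsk6, the receptor genes Npr1, Npr2 and Npr3, and Mme, which encodes the peptidase neprilysin. The libraries fell into 2 groups of 5. The osimertinib group came from TAC hearts treated with osimertinib, a lung cancer drug that blocks the kinase of the epidermal growth factor receptor, and the placebo group from TAC hearts given placebo, whose treatment label reads vehicle. All 10 samples had TAC, none without TAC was analysed here, and neither dose, duration, strain, sex nor age is given in the sources used here. The study asked how osimertinib harms the heart. Nothing in the labels states that each sample is a different animal, and p-values therefore measure the spread between these samples alone.

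Heart muscle cells make atrial natriuretic peptide (Nppa) and B-type natriuretic peptide (Nppb) as longer precursors that are cut during or after secretion. In the adult, atrial muscle is the main source of Nppa, and stretch or pressure load raises both genes in the ventricle, where they serve as markers of cardiac stress. The circulating peptides bind a receptor that makes cyclic GMP, which relaxes vessels and promotes the loss of salt and water by the kidney, and they are removed by a clearance receptor and by neprilysin.

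The libraries held 15863265 to 21309296 estimated reads, as read from the step between low values. The deposited values were read counts scaled to a common library total (CPM), which carry no factor between libraries, and mitochondrially encoded transcripts took 31.8% to 45.2% of the CPM in the osimertinib libraries, against 38.1% to 63.4% in the placebo libraries. Fold changes of the members are therefore given on the deposited CPM and again after median-ratio rescaling, which divided placebo library 5, the library with the highest mitochondrial share, by 0.455 and the other libraries by 0.926 to 1.34. The median log2 fold change of all 12350 tested genes was 0.27 on the deposited CPM and 0.01 after rescaling, and member changes on the deposited CPM are to be read relative to that shift. The ventricular light chain genes Myl2 and Myl3 were abundant in every library, with Myl2 at 4200 to 8173 CPM in the osimertinib libraries and 1053 to 5581 CPM in the placebo libraries, so defining markers of the labelled tissue were present. Atrial muscle transcripts were also present in 6 of the 10 libraries. Myl7, the atrial regulatory light chain, had 262, 378, 0.332, 1363 and 0.333 CPM in osimertinib libraries 1 to 5, against 270.2, 74.6, 0.899, 0 and 122 CPM in placebo libraries 1 to 5, so that 3 osimertinib and 3 placebo libraries carried atrial transcripts and 2 of each group had Myl7 under 1 CPM.

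Of the 10 genes, 9 passed the filter of at least 1 CPM in at least 5 libraries, and Nppc did not. On the deposited CPM, 4 of the 9 rose under osimertinib at a limma adjusted p under 0.05 (Nppa, Nppb, Npr3 and Mme) and 0 fell, against 6.62% of all tested genes called higher, 0.13% called lower and 6.74% in either direction. After rescaling, Pcsk6 and Mme rose and Npr2 fell, against 10.4% of all tested genes called higher, 10.5% called lower and 20.8% in either direction. Mme was the only member called on both scales. The median log2 fold change of the 9 members was 0.845 on the deposited CPM, against 0.27 over all tested genes, and 0.57 after rescaling, against 0.01. Heart muscle markers differed by amounts close to these. The 6 of that list had median log2 fold changes of 0.894 on the deposited CPM, with 2 called higher, and 0.608 after rescaling, with 1 called higher. Their summed deposited level was 17230 to 28680 CPM in the osimertinib libraries and 6728 to 21210 CPM in the placebo libraries. Of 4 ventricular genes, Myl2 and Myl3 were also called higher on the deposited CPM, with log2 fold changes of 1.09 and 1.46, and neither was called after rescaling. Irx4 and Hey2 were called on neither scale, with log2 fold changes of 0.29 and 0.39 on the deposited CPM and 0.013 and 0.19 after rescaling. The part of these markers in the members' values was not tested. Fold changes are differences of log2(CPM + 0.5), osimertinib over placebo, and understate the change of genes with low CPM.

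**Figure D1:**
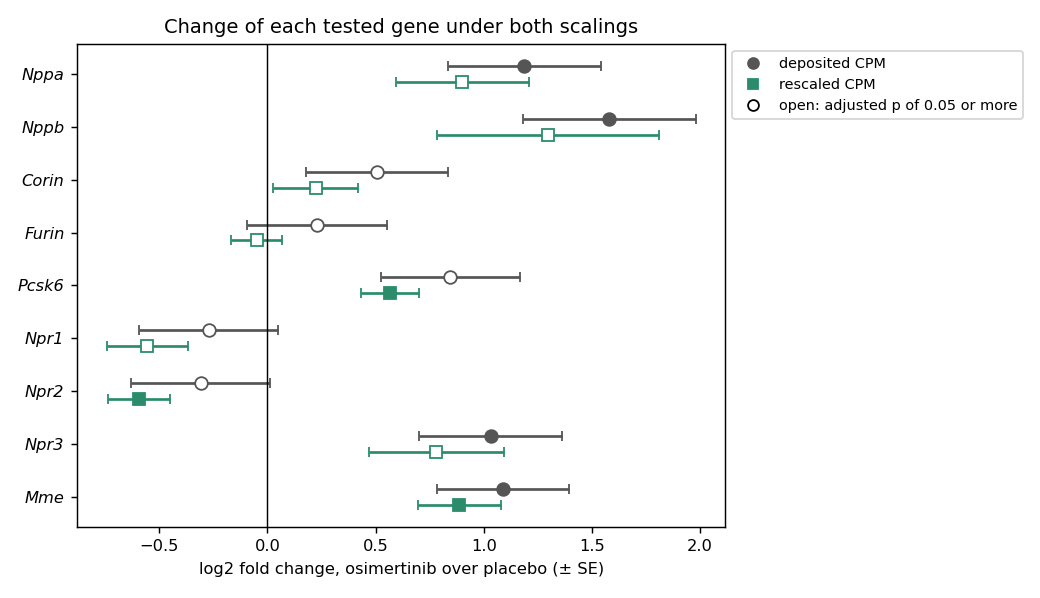
Log2 fold change of each of the 9 tested genes, osimertinib over placebo, with its standard error, on deposited CPM (circles) and after median-ratio rescaling (squares). Filled symbols have a limma adjusted p under 0.05. Nppa, Nppb, Npr3 and Mme are filled on the deposited CPM, and Pcsk6, Npr2 and Mme after rescaling. Npr1 and Npr2 lie left of 0 on both scales, and Furin lies right of 0 on the deposited CPM and left of it after rescaling.

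Per kilobase of transcript, the deposited level of Nppa was 1686 ± 633 CPM per kb in the osimertinib libraries and 812 ± 428 CPM per kb in the placebo libraries (SD, n = 5 each). Nppb stood next, at 586 ± 225 CPM per kb under osimertinib and 283 ± 302 CPM per kb under placebo, and its library range overlapped that of Nppa under placebo but not under osimertinib. The receptor and protease genes were far lower per length, and Npr2 led them at 17.4 ± 3.36 CPM per kb under osimertinib and 22.3 ± 8.04 CPM per kb under placebo. Corin, Npr1, Furin and Pcsk6 had mean levels between 8.85 and 12.9 CPM per kb under osimertinib and between 5.19 and 15 CPM per kb under placebo. From Npr2 down to Pcsk6 the library ranges of neighbouring genes overlapped in both groups. Npr3, at 2.02 and 1.02 CPM per kb, and Mme, at 0.387 and 0.150 CPM per kb in the osimertinib and placebo groups, were below them with no overlap.

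The 3 peptides share a ring closed by a disulphide bond, the part that binds the receptors. Nppb (chr4:147985788-147987205, plus strand, GRCm38) and Nppa (chr4:148000722-148002079, plus strand) are neighbours, 13516 bases apart with 0 genes of the table between them, while Nppc lies on another chromosome (chr1:86666291-86670571, minus strand).

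Nppa, the atrial natriuretic peptide gene, was the most abundant member in both groups. It had 1498, 1205, 1727, 2158 and 703 CPM in osimertinib libraries 1 to 5, against 840.2, 891, 1127, 454 and 201 CPM in placebo libraries 1 to 5. Osimertinib libraries 1 to 4 were above every placebo library, and the groups overlapped through osimertinib library 5, which was below placebo libraries 1 to 3 and level with the placebo mean. The means were 1458 ± 547 CPM under osimertinib and 703 ± 370 CPM under placebo (SD, n = 5 each), a log2 fold change of 1.19 ± 0.35 (SE, limma adjusted p = 0.0283). With rescaling the log2 fold change was 0.90 ± 0.31 (limma adjusted p = 0.0543), and 4 of 5 osimertinib libraries were above the placebo mean. In bulk tissue, fewer cells of a type and less RNA per cell cannot be told apart, here or for any other member. On the deposited CPM the call was lost without osimertinib library 3, osimertinib library 4 or placebo library 5, with log2 fold changes of 0.79 to 1.43 over all single omissions, and after rescaling it was gained without osimertinib library 5 or placebo library 3.

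Nppb, the B-type natriuretic peptide gene, had the largest fold change of the members on both scales. It had 394, 621, 607, 192 and 474 CPM in osimertinib libraries 1 to 5, against 146, 168, 631, 132.5 and 27.0 CPM in placebo libraries 1 to 5. Placebo library 3 held the highest value of all 10 libraries and stood apart from its group, where the other 4 libraries were below every osimertinib library. The means were 458 ± 176 CPM under osimertinib and 221 ± 236 CPM under placebo (SD, n = 5 each), and 4 of 5 osimertinib libraries were above the placebo mean. The log2 fold change was 1.58 ± 0.40 on the deposited CPM (SE, limma adjusted p = 0.00927), and on the rescaled CPM 1.30 ± 0.51 (limma adjusted p = 0.0847). Without placebo library 5 the deposited value was 0.99 (limma adjusted p = 0.119), and after rescaling Nppb passed the threshold without osimertinib library 4 or without placebo library 3.

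Nppc, the C-type natriuretic peptide gene, which is known mainly from endothelium and growing cartilage, was close to absent from these libraries. It had 0.0584 CPM (1 read) in osimertinib library 1 and 0 reads in osimertinib libraries 2 to 5, against 0.296 CPM (6 reads) in placebo library 1, 0.0630 CPM (1 read) in placebo library 2 and 0 reads in placebo libraries 3 to 5. Reads were thus seen in 1 osimertinib and 2 placebo libraries, and 0 reads allow up to 3, or 0.141 to 0.186 CPM in the libraries without a read, which covers counting error only. No comparison was made for Nppc.

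**Figure D2:**
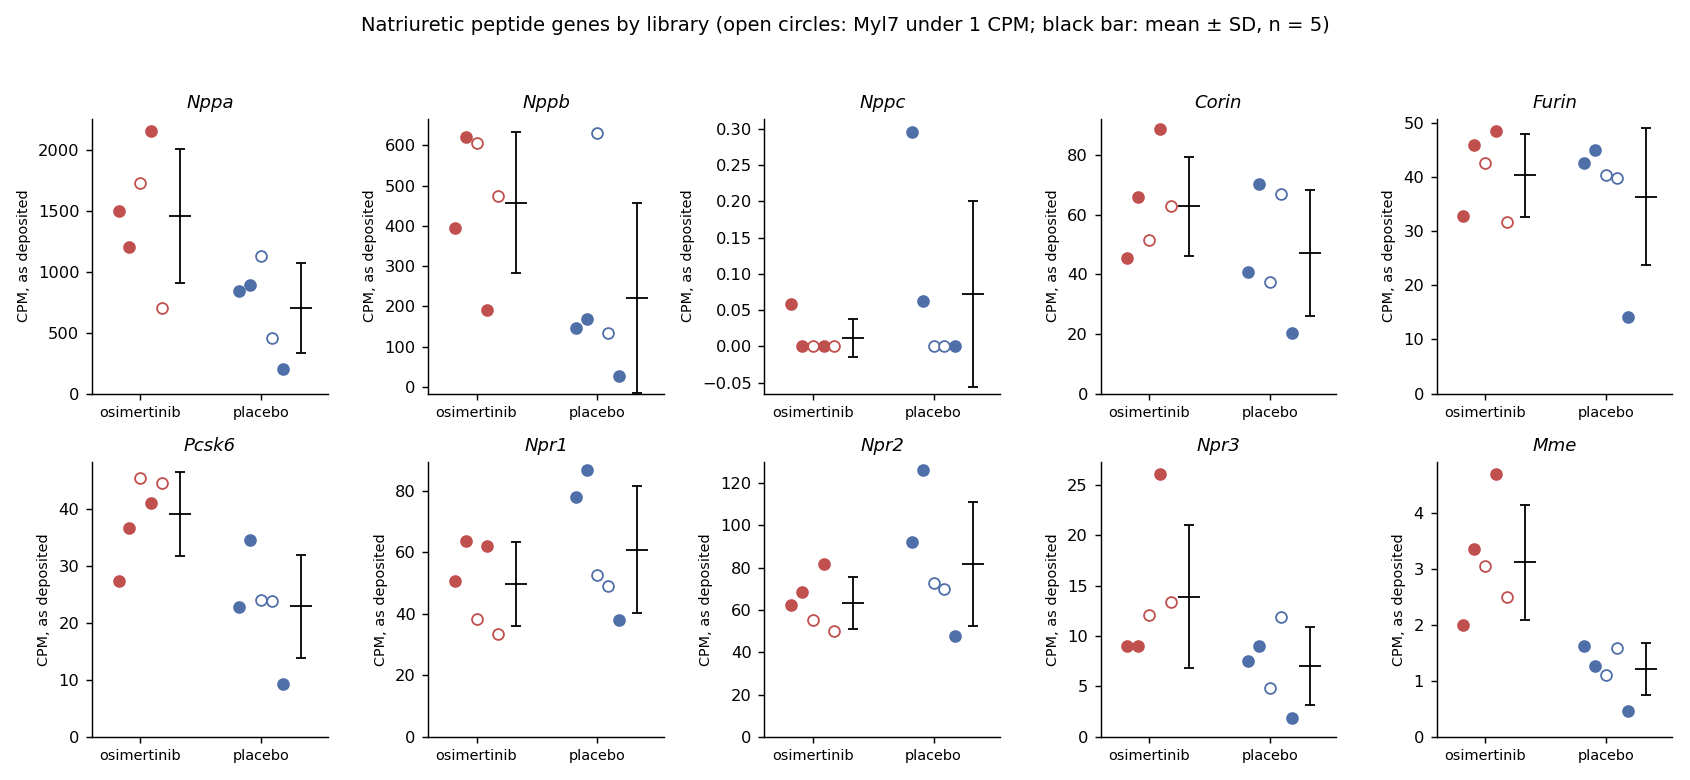
Deposited CPM of the 10 genes in each library (y axes, CPM, with a scale of its own in each panel) in the osimertinib (left, red) and placebo (right, blue) groups. Each circle is a library, open where Myl7 was under 1 CPM, and black bars give mean ± SD (n = 5 each). SD bars that cross 0 belong to Nppb in placebo and to Nppc in both groups, and Mme is the gene whose groups do not overlap, at 1.99 to 4.69 CPM under osimertinib and 0.469 to 1.63 CPM under placebo.

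Sequence before the RefSeq start is shown for Nppa and Nppb because they are neighbours called in the same direction on the deposited CPM. Capitals mark words known to bind cardiac regulators, searched on both strands. GATA factors were represented by TGATAA together with TGATAG as well as by the word AGATAA together with AGATAG, the homeobox factor NKX2-5 by AAGTG, and TEAD factors by the word CATTCC. The words found in these windows did not overlap each other. The 250 bases before the RefSeq start of Nppa (GRCm38.p6, chr4:148000472-148000721, plus strand) held 1 GATA word, 122 to 117 bases before the start, and 2 AAGTG words.
Nppa upstream: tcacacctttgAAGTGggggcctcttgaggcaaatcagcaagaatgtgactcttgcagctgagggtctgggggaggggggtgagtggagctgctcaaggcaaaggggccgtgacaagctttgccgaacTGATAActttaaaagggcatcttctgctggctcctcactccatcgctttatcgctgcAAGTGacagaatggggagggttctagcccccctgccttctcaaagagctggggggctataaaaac
The 250 bases before the RefSeq start of Nppb held 2 GATA words and 1 CATTCC word on the minus strand, all within 27 bases (chr4:147985795-147985821, plus strand, 105 to 79 bases before the start), and 0 AAGTG words. The RefSeq start of Nppb lies downstream of the first base of the GENCODE gene (147985788), which covers the last 112 bases of that window. The whole stretch lies inside those 112 bases. By GENCODE its words are therefore within the gene and not upstream of its start. Only this stretch is shown.
Nppb stretch: GGAATGcagcTGATAAatcagAGATAA
Among the 32851 RefSeq mouse promoters of the same length, 26.5% held at least 1 GATA word and 6.4% at least 2, 40.7% held AAGTG and 12.6% held CATTCC. Upstream windows of the same kind for the other members held GATA words in Mme, AAGTG in Furin and CATTCC in Mme. A match is a description of letters and does not show binding.

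The relation of Nppa and Nppb to atrial content was read from Myl7. The sorted log2 Myl7 levels had a gap of 5.75 between the 4 libraries under 1 CPM and the other 6, so no correlation over all 10 libraries is given. The 6 libraries with atrial transcripts were 3 osimertinib and 3 placebo libraries, with mean Myl7 of 667 and 155 CPM. Differences between the groups therefore enter each r, beside atrial content. Within these 6, Nppa and Myl7 had a Pearson r of 0.66 (exact permutation p = 0.131, adjusted over the 2 genes 0.261) and a Spearman rho of 0.60 (exact permutation p = 0.242, adjusted 0.356). Nppb and Myl7 had a Pearson r of 0.388 (exact permutation p = 0.425, adjusted 0.425) and a Spearman rho of 0.486 (exact permutation p = 0.356, adjusted 0.356). After rescaling, the Pearson r was 0.602 for Nppa (exact permutation p = 0.161, adjusted 0.322) and 0.151 for Nppb (exact permutation p = 0.750, adjusted 0.750). Neither relation passed a threshold of 0.05 on either scale. Without osimertinib library 4 and placebo library 2, the libraries farthest from the median Myl7 level, r was 0.91 for Nppa (exact permutation p = 0.333) and 0.948 for Nppb (exact permutation p = 0.167) over the 4 that remained. Over the same 4, Spearman rho was 0.4 for Nppa (exact permutation p = 0.75) and 0.8 for Nppb (exact permutation p = 0.333). Within the 6, osimertinib library 4 had the highest Myl7 and the highest Nppa, at 2158 CPM, but the lowest Nppb of its group, at 192 CPM.

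Both peptide genes were also abundant where Myl7 was almost absent. In the libraries with Myl7 under 1 CPM, Nppa had 1727 and 703 CPM under osimertinib (libraries 3 and 5), against 1127 and 454 CPM under placebo (libraries 3 and 4). Nppb had 607 and 474 CPM in those osimertinib libraries, against 631 and 132.5 CPM in those placebo libraries. The groups overlapped for both genes, and with 2 libraries a group the log2 fold changes on the deposited CPM were 0.62 for Nppa (limma adjusted p = 0.294) and 0.89 for Nppb (limma adjusted p = 0.218). After rescaling they were 0.43 for Nppa (limma adjusted p = 0.490) and 0.70 for Nppb (limma adjusted p = 0.367) in these 4 libraries. In the libraries with Myl7 over 1 CPM, Nppa had 1205 to 2158 CPM under osimertinib and 201 to 891 CPM under placebo, and Nppb had 192 to 621 CPM under osimertinib and 27.0 to 168 CPM under placebo. The 3 osimertinib and 3 placebo libraries did not overlap for either gene. The share of all tested genes that did the same was not computed, so no result is read from this separation. The log2 fold changes were 1.56 for Nppa (limma adjusted p = 0.202) and 2.04 for Nppb (limma adjusted p = 0.0716) on the deposited CPM. Of 11800 genes, limma called 18 higher in these libraries on the deposited CPM and 883 after rescaling. In these 6 libraries the rescaled values were 1.17 for Nppa (limma adjusted p = 0.0370) and 1.66 for Nppb (limma adjusted p = 0.0414). With log2 Myl7 as a covariate over all 10 libraries, the log2 fold change was 1.16 for Nppa (limma adjusted p = 0.00387) and 1.72 for Nppb (limma adjusted p = 2.04e-05) on the deposited CPM. This deposited fit, like the deposited fit over 1 CPM, took each SE from variance shared across genes. The wide spread of Nppb itself therefore did not enter its p-value. After rescaling, the covariate fit gave 0.88 for Nppa (limma adjusted p = 0.0314) and 1.41 for Nppb (limma adjusted p = 0.0168). Both covariate fits assume a single slope across the gap of 5.75 in log2 Myl7. The added 0.5 sets much of the log2 Myl7 value in the 4 libraries under 1 CPM. The slope therefore rests mostly on the contrast of these 4 libraries with the other 6. Whether atrial content within the 6 was adjusted for cannot be told from these fits. Of the other 7 atrial genes of the marker list, Myl4, Sln, Dkk3 and Mybphl were higher in each of the same 6 libraries than in any of the other 4, and Bmp10 was at 0 in all 10. Kcnj3 and Nr2f1 did not separate the 6 libraries from the 4. Kcnj3 was at 4.13 to 57.2 CPM in the 6 and 4.71 to 13.9 CPM in the 4. Nr2f1 was at 0.563 to 5.17 CPM in the 6 and 2.10 to 4.28 CPM in the 4. Under osimertinib Kcnj3 was 15.25, 27.0 and 57.2 CPM in libraries 1, 2 and 4, in the same order as Myl7. It was 13.9 and 10.1 CPM in osimertinib libraries 3 and 5. Under placebo Kcnj3 was 10.5, 14.6 and 4.13 CPM in libraries 1, 2 and 5, against 4.71 and 8.37 CPM in libraries 3 and 4. Of the 7 atrial genes tested, 2 (Dkk3 and Kcnj3) were called higher under osimertinib on the deposited CPM and 0 by limma after rescaling. Of all tested genes, 6.62% and 10.4% were called higher on these scales. The median log2 fold changes of the 7 were 1.35 and 1.08, against 0.27 and 0.01 over all tested genes. The summed CPM of the 8 atrial genes was 18.0 to 3455 in the osimertinib libraries and 13.8 to 653 in the placebo libraries.

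**Figure D3:**
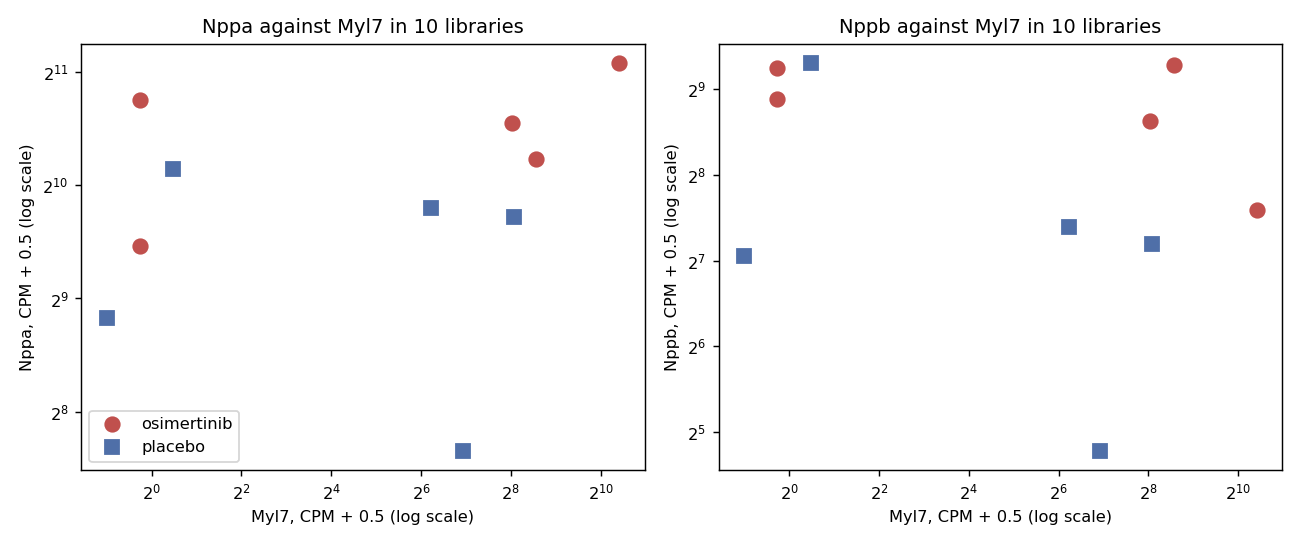
Nppa (left) and Nppb (right) against Myl7 in 10 libraries, both axes as CPM + 0.5 on a log scale of base 2. Red circles are osimertinib and blue squares are placebo libraries. The 4 libraries at the left of each panel have Myl7 under 1 CPM and still hold 454 to 1727 CPM of Nppa and 132.5 to 631 CPM of Nppb.

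The precursors are cut by different proteases. Corin, a membrane protease of heart muscle cells that cuts the Nppa precursor (chr5:72300025-72504473, minus strand), did not pass the test. It had 45.6, 65.8, 51.4, 88.8 and 62.9 CPM in osimertinib libraries 1 to 5, against 40.7, 70.4, 37.6, 67.1 and 20.2 CPM in placebo libraries 1 to 5. Osimertinib library 4 held the highest and placebo library 5 the lowest value, and the groups overlapped. The log2 fold change was 0.51 ± 0.33 on the deposited CPM (SE, limma adjusted p = 0.391), and on the rescaled CPM 0.22 ± 0.20 (limma adjusted p = 0.431).

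Furin, a convertase of the secretory pathway that cuts the Nppb and Nppc precursors (chr7:80388585-80405436, minus strand), was the member with the smallest difference. It had 32.8, 45.9, 42.6, 48.5 and 31.6 CPM in osimertinib libraries 1 to 5, against 42.5, 45.0, 40.4, 39.7 and 14.1 CPM in placebo libraries 1 to 5. Placebo library 5 stood far below the other 9, and after rescaling its Furin was 31.0 CPM, within the 30.8 to 42.9 CPM of all libraries. The log2 fold change was 0.23 ± 0.32 on the deposited CPM (SE, limma adjusted p = 0.738), and on the rescaled CPM -0.05 ± 0.12 (limma adjusted p = 0.787), so its sign depended on the scaling.

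Pcsk6, which encodes the convertase PACE4 that activates the corin proenzyme (chr7:65861734-66050386, plus strand), rose after rescaling. Its deposited values were 27.3, 36.6, 45.4, 41.0 and 44.5 CPM in osimertinib libraries 1 to 5, against 22.8, 34.5, 23.9, 23.8 and 9.29 CPM in placebo libraries 1 to 5. On that scale placebo library 2 overlapped the osimertinib group, and the log2 fold change was 0.84 ± 0.32 (SE, limma adjusted p = 0.0950). After rescaling, the osimertinib libraries had 27.9 to 43.3 CPM and the placebo libraries 20.4 to 25.7 CPM, with no overlap, and the log2 fold change was 0.57 ± 0.13 (SE, limma adjusted p = 0.0187). Of all tested genes, 5.72% had groups that did not overlap and were higher under osimertinib on that scale. Without osimertinib library 3 the rescaled adjusted p from limma was 0.0578.

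Of the receptor genes, Npr2 was called after rescaling, Npr3 on the deposited CPM and Npr1 on neither scale. Npr1 encodes the guanylyl cyclase that binds the Nppa and Nppb products (chr3:90450591-90465866, minus strand). It had 50.8, 63.8, 38.3, 62.1 and 33.3 CPM in osimertinib libraries 1 to 5, against 78.1, 86.7, 52.6, 49.1 and 37.9 CPM in placebo libraries 1 to 5. The groups overlapped on this scale, and the log2 fold change was -0.27 ± 0.32 (SE, limma adjusted p = 0.681). After rescaling, Npr1 had 51.8, 52.2, 33.2, 52.3 and 32.5 CPM in the osimertinib libraries, against 73.9, 64.5, 50.5, 53.1 and 83.4 CPM in the placebo libraries. All 5 osimertinib libraries were then below the placebo mean, with an overlap through placebo library 3 alone, and the log2 fold change was -0.56 ± 0.19 (SE, limma adjusted p = 0.0526). Npr1 passed the rescaled threshold without osimertinib library 1, osimertinib library 4, placebo library 3 or placebo library 4.

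Npr2, the guanylyl cyclase that binds the Nppc product (chr4:43631935-43651244, plus strand), fell after rescaling. Its deposited values were 62.2, 68.5, 55.3, 81.6 and 49.9 CPM in osimertinib libraries 1 to 5, against 92.3, 126, 72.8, 70.0 and 47.6 CPM in placebo libraries 1 to 5. Placebo library 5 had the lowest value on this scale, below every osimertinib library, and the log2 fold change was -0.31 ± 0.32 (SE, limma adjusted p = 0.632). After rescaling, Npr2 had 47.9 to 68.8 CPM in the osimertinib libraries and 69.8 to 105 CPM in the placebo libraries, so the groups did not overlap. Of all tested genes, 6.82% had groups that did not overlap and were lower under osimertinib on the rescaled CPM. The rescaled log2 fold change was -0.59 ± 0.14 (SE, limma adjusted p = 0.0201), and the call was lost without osimertinib library 3, osimertinib library 5 or placebo library 2, with adjusted p-values from limma of up to 0.0610.

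Among the libraries with Myl7 over 1 CPM and among those under it, the rescaled values of both cyclase receptors were lower in every osimertinib library than in any placebo library. This split was made after seeing the data, and the share of all tested genes that did the same was not computed. Groups this small separate easily, so no result is read from the separation. Npr1 and Npr2 also varied together (Pearson r = 0.935 over 10 libraries), so they do not count as separate observations. In the rescaled fits limma called 464 of 11800 genes lower with Myl7 over 1 CPM and 1792 of 12369 under it. The libraries over 1 CPM were not alike in atrial content, since Myl7 averaged 667 CPM in the 3 osimertinib libraries and 155 CPM in the 3 placebo libraries. In the libraries with Myl7 over 1 CPM, rescaled Npr1 was 51.8 to 52.3 CPM under osimertinib and 64.5 to 83.4 CPM under placebo, and rescaled Npr2 was 56.1 to 68.8 CPM under osimertinib and 87.4 to 105 CPM under placebo. In the libraries with Myl7 under 1 CPM, rescaled Npr1 was 32.5 to 33.2 CPM under osimertinib and 50.5 to 53.1 CPM under placebo, and rescaled Npr2 was 47.9 to 48.7 CPM under osimertinib and 69.8 to 75.6 CPM under placebo. The rescaled log2 fold change of Npr1 was -0.50 with Myl7 over 1 CPM (limma adjusted p = 0.0407) and -0.70 with Myl7 under 1 CPM (limma adjusted p = 0.00473). With Myl7 as a covariate on the rescaled CPM it was -0.62 for Npr1 (limma adjusted p = 0.000202) and -0.63 for Npr2 (limma adjusted p = 0.000258). On the deposited CPM the covariate fit gave -0.35 for both (limma adjusted p = 0.569 and 0.555), so these calls depended on the scaling. The limit of the Myl7 covariate given above applies to these fits too. Deposited Npr1 and Npr2 were at -0.12 and -0.22 with Myl7 over 1 CPM (limma adjusted p = 0.985 and 0.984). Under 1 CPM they were at -0.50 and -0.44 (limma adjusted p = 0.0440 and 0.0591). Npr1 is also expressed by endothelium. The summed rescaled CPM of 5 endothelial marker genes was 1008 to 1289 in the osimertinib libraries and 1153 to 1743 in the placebo libraries. On that scale 2 of the 5 were called lower and 0 higher, against 10.5% of all tested genes lower and 10.4% higher. Those called were Tie1 (log2 fold change -0.38) and Egfl7 (-0.76). Pecam1 (-0.09), Cdh5 (-0.24) and Kdr (-0.05) were not called. The part of these markers in the result was not tested.

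Npr3, the clearance receptor, which lacks the cyclase and takes the peptides into the cell (chr15:11839896-11907287, minus strand), rose on the deposited CPM. It had 9.06, 9.04, 12.1, 26.1 and 13.4 CPM in osimertinib libraries 1 to 5, against 7.55, 9.01, 4.86, 11.9 and 1.83 CPM in placebo libraries 1 to 5. All 5 osimertinib libraries were above the placebo mean, osimertinib library 4 stood far above the rest, and placebo library 4 overlapped the osimertinib group. The means were 13.9 ± 7.05 CPM under osimertinib and 7.03 ± 3.86 CPM under placebo (SD, n = 5 each). The log2 fold change was 1.03 ± 0.33 on the deposited CPM (SE, limma adjusted p = 0.0422), and on the rescaled CPM 0.78 ± 0.31 (limma adjusted p = 0.0876). On the deposited CPM the call was lost without osimertinib library 3, 4 or 5 or placebo library 3 or 5, with log2 fold changes down to 0.66, and after rescaling it was gained without placebo library 4.

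**Figure D4:**
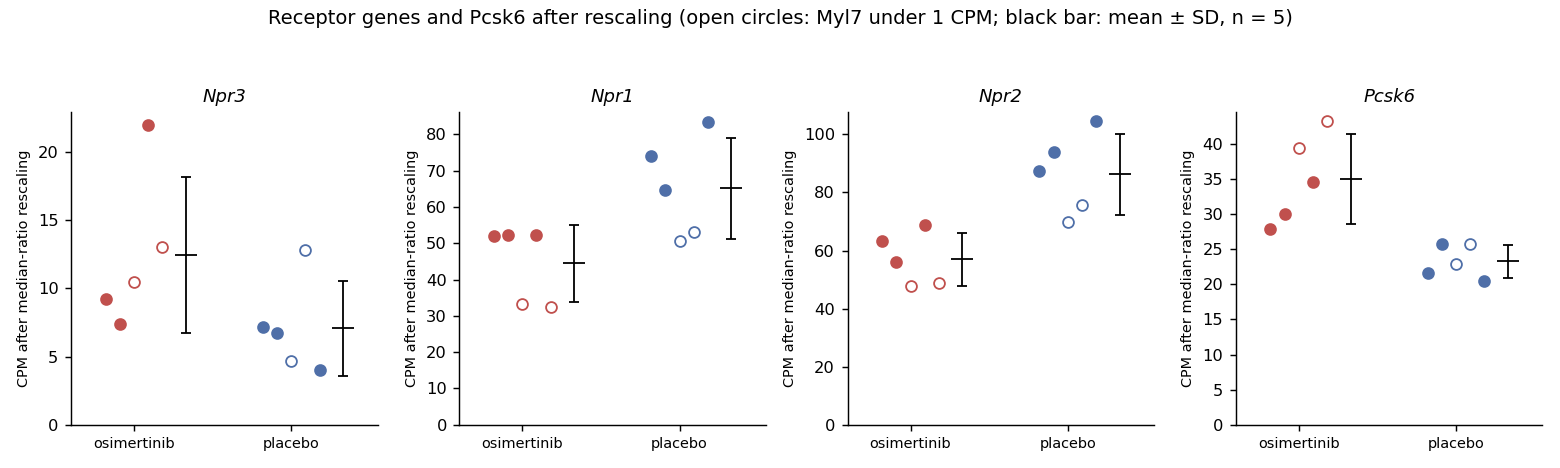
CPM after median-ratio rescaling (y axes) of Npr3, Npr1, Npr2 and Pcsk6 by library in the osimertinib (left, red) and placebo (right, blue) groups. Circles are libraries, open where Myl7 was under 1 CPM, and black bars give mean ± SD (n = 5 each). The groups do not overlap for Npr2, at 47.9 to 68.8 CPM under osimertinib and 69.8 to 105 CPM under placebo, and for Pcsk6, at 27.9 to 43.3 CPM under osimertinib and 20.4 to 25.7 CPM under placebo.

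Mme, the gene of neprilysin, a membrane peptidase that degrades natriuretic peptides (chr3:63241537-63386030, plus strand), rose on both scales. It had 1.99, 3.34, 3.04, 4.69 and 2.49 CPM in osimertinib libraries 1 to 5, against 1.63, 1.26, 1.11, 1.58 and 0.469 CPM in placebo libraries 1 to 5. Every osimertinib library was above every placebo library, as for 5.33% of all tested genes on the deposited CPM (0.081% were lower with no overlap), although the level was low, from 10 to 79 reads a library. The log2 fold change was 1.09 ± 0.30 on the deposited CPM (SE, limma adjusted p = 0.0190), and on the rescaled CPM 0.89 ± 0.19 (limma adjusted p = 0.0161). The rescaled call held in all 10 single omissions, and the deposited one was lost without osimertinib library 2, 3 or 4 (limma adjusted p up to 0.0640).

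Ratios within a library depend on the scaling between libraries only through the 0.5 added to each CPM, which matters where a gene is low. Of the 6 ratios formed, clearance receptor to cyclase receptor (Npr3/Npr1) differed most between the groups relative to its spread. On the log2 scale it was -2.43, -2.75, -1.62, -1.24 and -1.29 in osimertinib libraries 1 to 5, against -3.29, -3.20, -3.31, -2.0 and -4.04 in placebo libraries 1 to 5. Only placebo library 4 reached into the osimertinib range. The group means were -1.86 ± 0.69 under osimertinib and -3.17 ± 0.73 under placebo (SD, n = 5 each), a difference of 1.30 (exact permutation test over all assignments of libraries to groups, two-sided, p = 0.0238). Adjusted over the 6 ratios this was 0.143, which does not pass 0.05. The smallest p these groups allow is 0.00794. From rescaled CPM the difference was 1.34, with an exact permutation p of 0.0238, adjusted 0.143. Leaving out each library in turn gave differences of 1.08 to 1.60 with unadjusted exact p-values of 0.0159 to 0.0476. The ratio of Nppb to Nppa was -1.69 ± 1.13 under osimertinib and -2.08 ± 0.80 under placebo (SD, n = 5 each; exact permutation p = 0.532). The ratio of Corin to Nppa was -4.47 ± 0.66 under osimertinib and -3.78 ± 0.85 under placebo (SD, n = 5 each; exact permutation p = 0.190). Nppb relative to the ventricular gene Myl2 was -3.81 ± 0.46 under osimertinib and -4.30 ± 0.94 under placebo (SD, n = 5 each; exact permutation p = 0.333). The ratios to Myl7 spread over 0.663 to 11 under osimertinib and 0.725 to 9.83 under placebo for Nppa, since Myl7 was near 0 in 4 libraries, where the added 0.5 sets much of the ratio. Their group differences were 0.04 for Nppa/Myl7 (exact permutation p = 0.960) and 0.43 for Nppb/Myl7 (exact permutation p = 0.833). Adjusted over the 6 ratios, the p-values of these 5 lay between 0.571 and 0.960.

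**Figure D5:**
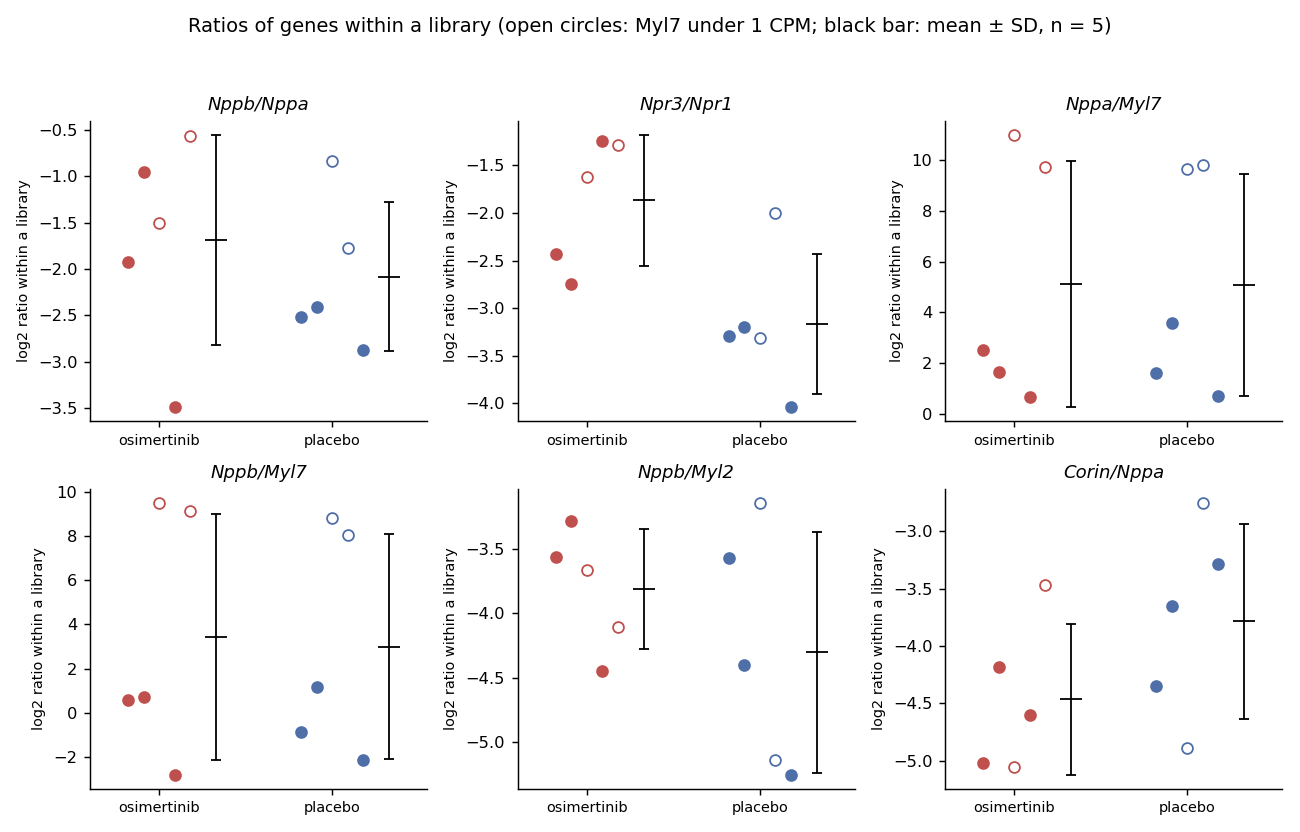
Log2 ratios of 6 gene pairs within each library (y axes), with 0.5 added to each CPM, in the osimertinib (left, red) and placebo (right, blue) groups. Circles are libraries, open where Myl7 was under 1 CPM, and black bars give mean ± SD (n = 5 each). Npr3/Npr1 runs from -2.75 to -1.24 under osimertinib and from -4.04 to -2.0 under placebo, and the other ratios overlap more widely.

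Downstream of the receptors, the list of guanylyl cyclase and cyclic GMP genes held 17 genes, of which 12 were tested. Of these 2 rose and 0 fell on the deposited CPM, with a median log2 fold change of 0.48, against 6.62% of all tested genes higher, 0.13% lower and a median of 0.27. After rescaling 2 rose and 2 fell, with a median of 0.23, against 10.4% of all tested genes higher, 10.5% lower and a median of 0.01. Pde1c, a phosphodiesterase that hydrolyses cyclic GMP and cyclic AMP, averaged 17.9 ± 4.08 CPM under osimertinib and 7.64 ± 3.83 CPM under placebo, a log2 fold change of 1.31 ± 0.32 (limma adjusted p = 0.00823), and on the rescaled CPM 1.05 ± 0.21 (limma adjusted p = 0.0141). Pde3a, a phosphodiesterase inhibited by cyclic GMP, averaged 14.6 ± 3.14 CPM under osimertinib and 7.14 ± 3.08 CPM under placebo, a log2 fold change of 1.09 ± 0.31 (limma adjusted p = 0.0228), and on the rescaled CPM 0.83 ± 0.16 (limma adjusted p = 0.0138). Pde3a lost its deposited call without osimertinib library 3 or 5. Gucy1a1, a subunit of the nitric oxide receptor cyclase, had a log2 fold change of 0.61 on the deposited CPM and 0.34 after rescaling, and Rgs2, a target of the cyclic GMP kinase, of 0.83 and 0.58, and neither was called on either scale. The 2 genes called lower after rescaling, named after their values were seen, were Pde2a (log2 fold change -0.52), a phosphodiesterase stimulated by cyclic GMP, and Abcc4 (-0.38), a cyclic nucleotide exporter. Pde2a lost that call without osimertinib library 3 or placebo library 2, and Abcc4 kept it only without osimertinib library 2 or placebo library 3.

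Among 12 other genes of peptide processing, granules and clearance, 7 were tested, and 2 rose on both scales, against 6.62% of all tested genes called higher on the deposited CPM and 10.4% after rescaling. The median log2 fold change of the 7 was 0.633 on the deposited CPM and 0.402 after rescaling, against 0.27 and 0.01 over all tested genes. Pam, the amidating enzyme that is abundant in the membranes of atrial secretory granules, averaged 291 ± 184 CPM under osimertinib and 77.8 ± 30.6 CPM under placebo, a log2 fold change of 1.81 ± 0.35 (limma adjusted p = 0.00205), and on the rescaled CPM 1.52 ± 0.29 (limma adjusted p = 0.0132). Cpe, the granule carboxypeptidase, averaged 128 ± 26.2 CPM under osimertinib and 58.8 ± 19.0 CPM under placebo, a log2 fold change of 1.18 ± 0.33 (limma adjusted p = 0.0182), and on the rescaled CPM 0.89 ± 0.13 (limma adjusted p = 0.00867). Cpe lost its deposited call without osimertinib library 2, 3 or 4. The peptidase genes Ide and Dpp4 had log2 fold changes of 0.66 and 0.63 on the deposited CPM and 0.38 and 0.41 after rescaling, and were not called on either scale. Pcsk7, a convertase named after its values were seen, was called lower after rescaling (log2 fold change -0.43) and lost that call without osimertinib library 3 or 5 or placebo library 1 or 2. The granule genes Chga, Chgb and Scg2 averaged under 1 CPM in both groups and were not tested.

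Of 16 transcription factor genes known to bind natriuretic peptide promoters, all were tested, 5 rose and 0 fell on each scale, with median log2 fold changes of 0.52 on the deposited CPM and 0.245 after rescaling. Over all tested genes, 6.62% were called higher on the deposited CPM with a median of 0.27, and 10.4% after rescaling with a median of 0.01. Nkx2-5, a homeobox factor of heart muscle, averaged 43.1 ± 11.8 CPM under osimertinib and 15.6 ± 5.75 CPM under placebo (log2 fold change 1.48 ± 0.32, limma adjusted p = 0.00378). Tbx20, a T-box factor, averaged 28.5 ± 6.51 CPM under osimertinib and 10.7 ± 3.47 CPM under placebo (log2 fold change 1.39 ± 0.31, limma adjusted p = 0.00410). Nkx2-5 and Tbx20 were also called after rescaling, with log2 fold changes of 1.20 and 1.11, and kept both calls in every single omission. Gata4, whose binding word is marked above, averaged 42.4 ± 7.29 CPM under osimertinib and 21.3 ± 6.00 CPM under placebo, a log2 fold change of 1.01 ± 0.31 (limma adjusted p = 0.0358), and on the rescaled CPM 0.73 ± 0.12 (limma adjusted p = 0.00867). Gata4 lost its deposited call in 6 of 10 single omissions (osimertinib libraries 2 to 5, placebo libraries 1 and 4) and its rescaled call in none. Tbx5, a T-box factor that is higher in atria, averaged 13.2 ± 11.3 CPM under osimertinib and 4.34 ± 1.75 CPM under placebo, a log2 fold change of 1.25 ± 0.33 (limma adjusted p = 0.0130), and on the rescaled CPM 0.98 ± 0.42 (limma adjusted p = 0.110). Its deposited call was lost without osimertinib library 4 or placebo library 5. The fifth gene called on the deposited CPM was Srf (log2 fold change 1.00), and after rescaling Srf (0.72) was called and Gata6 (0.49) took the place of Tbx5, both named after their values were seen. Srf lost its deposited call in 6 of 10 single omissions (osimertinib libraries 2 to 5, placebo libraries 1 and 4) and its rescaled call in none, and Gata6 lost its rescaled call without osimertinib library 3 or placebo library 1 or 2.

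The 5 neighbours of the Nppb and Nppa locus described here did not share a direction. Mfn2, a mitochondrial fusion gene, averaged 248 ± 55.2 CPM under osimertinib and 123 ± 42.4 CPM under placebo, a log2 fold change of 1.06 ± 0.33 (limma adjusted p = 0.0348), and on the rescaled CPM 0.78 ± 0.18 (limma adjusted p = 0.0185). Its deposited call was lost without osimertinib library 2, 3, 4 or 5 or placebo library 1, and its rescaled call without osimertinib library 3. No other neighbour was called on the deposited CPM, where the median of the 5 was 0.0127. After rescaling 2 were called lower, namely Miip (log2 fold change -0.71) and Plod1 (log2 fold change -0.41, limma adjusted p = 0.0498). The shares of all tested genes were 6.62% higher and 0.13% lower on the deposited CPM, and 10.4% higher and 10.5% lower after rescaling. Miip lost that call without osimertinib library 2, 3 or 5 or placebo library 1 or 2, and Plod1 lost it in 8 of 10 single omissions, all but those of osimertinib library 1 and placebo library 5. Both were named after their values were seen.

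Among 11 other load-responsive genes, 10 were tested, 4 rose on the deposited CPM and 0 fell, with a median log2 fold change of 1.02, and 2 rose after rescaling, with a median of 0.73. Among all tested genes 6.62% were called higher on the deposited CPM and 10.4% after rescaling, with medians of 0.27 and 0.01. Ankrd1, a stretch-responsive sarcomere gene, averaged 904 ± 218 CPM under osimertinib and 315 ± 210 CPM under placebo, a log2 fold change of 1.77 ± 0.35 (limma adjusted p = 0.00245), and on the rescaled CPM 1.49 ± 0.32 (limma adjusted p = 0.0161). The fetal sarcomere genes Acta1 and Myh7 had log2 fold changes of 1.86 (limma adjusted p = 0.00476) and 1.47 (limma adjusted p = 0.00825) on the deposited CPM, and the stress cytokine gene Gdf15 had 1.30 (limma adjusted p = 0.0141). After rescaling their log2 fold changes were 1.58 for Acta1 (limma adjusted p = 0.114), 1.18 for Myh7 (limma adjusted p = 0.0854) and 1.07 for Gdf15 (limma adjusted p = 0.0944), so none of the 3 was called. Acta1 lost its deposited call without placebo library 2 or 5, and Myh7 and Gdf15 without placebo library 5. The second gene called after rescaling was Fhl1 (log2 fold change 0.57), named after its values were seen. Its call was lost without osimertinib library 3.

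Genes whose levels followed those of the members were listed as a description, over 10 libraries of both groups on the rescaled log2 scale and among 11720 named genes, so that shared group differences enter every r. For Nppa these were Rnf26 (Pearson r = 0.914), Rnft1 (0.895), Zdhhc21 (0.883), Cmklr1 (0.876) and Sema3c (0.858). For Nppb they were Tmem144 (Pearson r = 0.992), Popdc3 (0.981), Abra (0.971), Aqp8 (0.967) and Nrap (0.967). Cnot1 led for Corin (0.939), Btg2 for Furin (0.956) and Glul for Pcsk6 (0.984), and the third gene for Pcsk6 was Pde3a (0.975) of the cyclic GMP list. For the receptors the leading genes were Dhx57 for Npr1 (0.985), Tctn1 for Npr2 (0.990) and Atrip for Npr3 (0.907), with the endothelin receptor gene Ednra next for Npr3 (0.901). Abat led for Mme (0.966), followed by the muscarinic receptor gene Chrm2 (0.965). Leaving out any single library kept r at 0.803 or above for the 10 genes listed for Nppa and Nppb.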

How the data were processed

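Poly(A) RNA of left ventricular tissue was sequenced in 10 mouse samples, 5 osimertinib and 5 placebo, grouped and numbered by their titles. The deposited values are CPM, scaled by the authors to each library's own total, for each gene and library. STAR alignment to GRCm38 and RSEM quantification are given per the design text, and the submitters' processing notes name cutadapt 1.9, HISAT2 2.0.4, StringTie 1.3.4d, DESeq2 and the human build hg38 instead. The gene identifiers are mouse identifiers, and 98.8% (45143 of 45706) matched GENCODE M21, which gave coordinates and lengths, while all 10 member symbols came from the deposited table. Promoters came from RefSeq (GRCm38.p6). The spacing of low values gave estimated reads, 90.9% to 93.5% of them whole within 0.01 read, so no count test was run. All 45 library pairs differed by more than sampling noise (chi-square divided by its degrees of freedom at least 22.6). The 12350 genes that reached 1 CPM in 5 or more libraries were tested with limma 3.58.1 in R 4.3.3 on log2(CPM + 0.5). The test was two-sided and used the intensity trend, and p-values were adjusted over all of these genes by the method of Benjamini and Hochberg, with calls at 0.05. SE is the moderated standard error. The prior degrees of freedom were 72.9 for deposited CPM and 4.45 for rescaled CPM, so on the deposited CPM the shared variance set most of a gene's SE. Ratios and relations were tested with exact permutation tests (scipy 1.17.1). The members and gene lists were chosen with earlier results of these data known. Up to 4 genes of each list were named by rule, called ones first and then by p, and other called genes are marked as named after their values were seen, and for likeness 5 genes for Nppa and Nppb and 3 for the others by Pearson r. Same-numbered samples of the groups correlated in their deviations at -0.334 to 0.466, so the numbers were not taken to pair them. Alternatives were other pseudocounts (0.1 and 2), no filter, a filter on the mean (5 CPM), rescaling, no trend, array weights, voom on estimated reads, CPM without mitochondrially encoded genes, a replicate block, Myl7 as a covariate and leaving out each library. The fits within libraries with Myl7 over or under 1 CPM and the ratios of rescaled CPM were added after seeing the data. The red cell marker Hbb-bs was not used here. One listed gene and the comparison of the peptides' coding sequences are not reported here.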

Additional observations from a re-analysis of the deposited data

Results flagged for a closer look

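Each member's 5 values per group, and those of the 6 ratios, were checked for a library whose gap to its nearest neighbour took more than 0.71 of the group's range, and 5 of 32 groups met this. The cut is met by about 1 in 20 groups only where values are normal and groups independent. Nppc was mostly at 0 reads and the ratios reuse the members' values, so no excess is read from the count. Nppb in placebo library 3, at 631 CPM, stood above the other 4 placebo libraries, which had 27.0 to 168 CPM, and it was also above every osimertinib library. Npr3 in osimertinib library 4, at 26.1 CPM, stood above the other 4 osimertinib libraries, which had 9.04 to 13.4 CPM, and that library also had the highest Myl7, at 1363 CPM. Furin in placebo library 5, at 14.1 CPM, stood below the other 4 placebo libraries, which had 39.7 to 45.0 CPM, and that library also had the highest mitochondrial share, 63.4%, while after rescaling its Furin was 31.0 CPM. Nppc in osimertinib library 1 (0.0584 CPM, 1 read) and in placebo library 1 (0.296 CPM, 6 reads) stood above groups that were mostly at 0 reads. The part of Myl7 and of the mitochondrial share in these values was not tested.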

How the results depend on the processing

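On the deposited CPM 833 genes and 4 members were called, and after rescaling 2574 and 3. Over single omissions these counts were 301 to 1150 genes and 1 to 5 members on the deposited CPM, and 517 to 2789 genes and 1 to 6 members after rescaling. On the deposited CPM genes called numbered 2579 with array weights, 1302 with Myl7 as a covariate (4634 and 6 members after rescaling), 2991 within libraries with Myl7 under 1 CPM and 18 over it (1347 and 5 members after rescaling). The replicate block, which pairs samples by a shared number only, gave 1320 genes with the same 4 members called, and after rescaling 2949 genes with 5 members called (Nppa, Npr3, Npr2, Pcsk6 and Mme). Without a filter limma called 0 genes and 0 members (smallest adjusted p 0.0707, 3269 genes at an unadjusted p under 0.05), against 598 genes by voom with its filter. Members called numbered 1 without mitochondrially encoded genes (Mme), 2 with array weights (Pcsk6 and Mme), 2 with voom on estimated reads (Nppb and Mme), 2 within libraries with Myl7 under 1 CPM (Pcsk6 and Npr1) and 0 over it. The log2 fold change of Furin was -0.049 after rescaling and -0.027 without mitochondrially encoded genes. With Myl7 under 1 CPM it was -0.12, and -0.32 after rescaling (limma adjusted p = 0.1155). With Myl7 over 1 CPM it was 0.087 after rescaling. Over single omissions the log2 fold change of Furin was -0.077 to 0.33 on the deposited CPM and -0.11 to 0.0018 after rescaling. That of Corin was -0.017 rescaled with Myl7 under 1 CPM. With Myl7 over 1 CPM, Abcc4 was at 0.0048, Pcsk7 at 0.023 and Plod1 at 0.066. Over single omissions on the deposited CPM, Abcc4 ran from -0.35 to 0.0071, Pcsk7 from -0.42 to 0.0071, and Plod1 from -0.48 to 0.021, each above 0 without placebo library 2. The group difference in Nppa/Myl7 was -0.012 from rescaled CPM, an alternative chosen after seeing the data, and over single omissions it ran from -1.44 to 1.22 and in Nppb/Myl7 from -1.09 to 1.99. The cause of these changes was not tested. Mme, whose mean was under 5 CPM, was not tested under that filter. In most single-omission, block and covariate fits on the deposited CPM the prior degrees of freedom were infinite, so a gene's own spread did not enter its SE. Depth limits Nppc and Mme.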

Other observations

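Other marker lists gave these values beside the members. The 6 heart muscle markers (Tnnt2, Myh6, Actn2, Ttn, Tnni3, Ryr2) had a summed rescaled level of 17580 to 27960 CPM in the osimertinib libraries and 11200 to 22920 CPM in the placebo libraries, with 2 of 6 called higher on the deposited CPM and 1 of 6 after rescaling. The 6 fibroblast markers had 580 to 1197 CPM in the osimertinib libraries and 427 to 790 CPM in the placebo libraries after rescaling, with 0 of 6 called by limma. The 5 smooth muscle and pericyte markers had 479 to 769 CPM in the osimertinib libraries and 403 to 607 CPM in the placebo libraries after rescaling, with 0 of 5 called by limma. The 5 macrophage markers had 81.2 to 106 CPM in the osimertinib libraries and 58.6 to 85.8 CPM in the placebo libraries after rescaling, with 1 of 5 called higher. After rescaling the 5 endocardial markers had 112 to 152 CPM in the osimertinib libraries and 97.3 to 185 CPM in the placebo libraries. Of these 4 were tested and 0 called on either scale. Of 3 epicardial markers only Wt1 was tested, and it was called lower after rescaling (log2 fold change -0.63). Over all tested genes 6.62% were called higher on the deposited CPM, and 10.4% higher and 10.5% lower after rescaling. The part of these lists in the members' values was not tested.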
